A study of Homo sapiens with 18 samples.

Results

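Open chromatin at the MHC class II genes and at CIITA was profiled in Ccd18-Co, an established line of human colon fibroblasts. The method was bulk ATAC-seq, in which a transposase cuts accessible DNA and leaves sequencing adaptors there. The peaks described are the 50 of 334857 consensus peaks that overlapped the body or the 10 kb upstream of CIITA, CD74, HLA-DRA, HLA-DRB1, HLA-DQA1, HLA-DQB1, HLA-DPA1, HLA-DPB1, HLA-DMA or HLA-DMB in GENCODE annotation of hg38, each shared peak being counted once. Of these, 29 touched an exon, 13 lay in introns and 8 lay upstream. A total of 17 were start peaks, that is, within 250 bp of an annotated transcript start.

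The 18 libraries formed 3 groups of 6. Unstimulated cells received no cytokine. DMSO cells received 3 pulses of TNF, OSM and IL-17A (10 ng/ml each) with IL-1β (0.1 ng/ml), each of 72 h followed by 96 h of recovery, and after 1 week of rest the solvent DMSO for 5 days. Belinostat cells had the same history but were given 250 nM of the histone deacetylase inhibitor belinostat in DMSO's place. Both pulsed groups were collected 2 weeks later, and interferon-γ was not part of the mix. Doses are given here as in the labels. For belinostat the study's own text has a higher one, and for IL-1β in places a lower one. All libraries came from 1 cell line, and the labels do not say whether they came from separate cultures, so p-values measure the spread between these libraries, which may be technical. DMSO minus unstimulated is called the cytokine contrast, belinostat minus DMSO the belinostat contrast, and belinostat minus unstimulated the residual contrast. Each pair of contrasts shares a group of libraries. The labels do not say whether unstimulated cells also had a solvent period, so the pulses and the DMSO period cannot be told apart in the cytokine contrast, nor the pulses and belinostat in the residual one.

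Class II molecules are pairs of an α and a β chain (HLA-DR, -DQ and -DP) that show peptides from engulfed proteins to CD4+ T cells. CD74, the invariant chain, occupies their groove until HLA-DM, made by HLA-DMA and HLA-DMB, exchanges its last fragment for peptide. The genes are switched on together by CIITA, a coactivator that does not bind DNA itself but docks on RFX, CREB and NF-Y factors at the X and Y boxes of their promoters. CIITA in turn has alternative promoters, used in dendritic cells (I), in B cells (III) and after interferon-γ in other cells (IV). Fibroblasts have little class II at rest and gain it after interferon-γ.

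The promoters of 3 member genes are shown because the box pair that CIITA depends on could be read in them and because each lay inside a start peak measured here. The X box was searched as GNNACNGNT and the Y box as ATTGG, in that order on 1 strand with 15 to 30 bases between them. Capitals mark both boxes, and the sequences are RefSeq's for GRCh38.p14, written 5′ to 3′ on the strand of the gene.
HLA-DRB1 (chr6:32589875-32589951, minus strand): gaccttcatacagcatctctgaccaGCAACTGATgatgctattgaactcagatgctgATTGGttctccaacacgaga
HLA-DQB1 (chr6:32666726-32666802, minus strand): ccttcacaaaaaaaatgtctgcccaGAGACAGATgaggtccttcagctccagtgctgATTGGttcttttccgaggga
HLA-DMA (chr6:32953157-32953234, minus strand): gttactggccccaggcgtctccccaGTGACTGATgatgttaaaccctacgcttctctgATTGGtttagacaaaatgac
The gap between the boxes was 23 bases in HLA-DRB1 and HLA-DQB1 and 24 in HLA-DMA. The RefSeq table held promoters of 8 of the 10 members, those of CIITA and HLA-DRA not being among them. On the gene's own strand the pair occurred in 0.299% of 35116 promoters.

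In 300 bp centred on each peak, the same pair was found on either strand in 5 of the 50 member peaks (10%), against 0.449% of all peaks. They were the start peaks of HLA-DRA, HLA-DRB1, HLA-DQB1 and HLA-DMA and a peak centred at -2292 bp from the HLA-DRA start. The X box alone was in 48% of member peaks and 35.3% of all peaks, and the Y box alone in 44% and 31.4%. Words read by interferon-activated factors were the GAS word TTCNNNGAA in 4% of member peaks (8.7% of all) and the ISRE word TTCNNTTTC in 12% (8.44%). The E-box CACGTG was in 6% (5.12%), the AP-1 word TGANTCA in 8% (17.8%) and the κB word GGNNTTTCC in 2% (5.46%). A match is a description of the letters and not a bound site.

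Libraries held 4661678 to 11352032 fragments in peaks, most in unstimulated (7077321 to 11352032) and fewest in belinostat libraries (4661678 to 6370845). The mean was under 10 counts per library in 26 of the 50 peaks, a smaller share than the 67.1% of all peaks, and 13 had a count of 0 in at least 1 library. The fibroblast label was checked on start peaks, which all 10 fibroblast markers had, with a summed 394 CPM (counts scaled to TMM-adjusted library size) in unstimulated libraries, 305 after DMSO and 276 after belinostat. Of 9 markers of immune cells, PTPRC, SPI1, MS4A1 and CD79A had no start peak, and the other 5 summed to 44.3, 43.6 and 40.9 CPM. Ranges of the immune sum overlapped between all groups (40.6 to 47.7, 36.4 to 49.6 and 36.9 to 45.3 CPM). All 5 epithelial markers (38.6, 34.7 and 37.4 CPM) and all 4 endothelial markers (6.79, 7.49 and 7.05 CPM) had start peaks. The sums are not scaled for the number or width of start peaks. Per kb in unstimulated libraries, fibroblast markers had 8.25 to 41 CPM and immune markers 1.54 to 9.48. Epithelial markers had 2.89 to 13.2 and endothelial markers 1.95 to 5.55, so some single markers did not separate the lists. In bulk libraries, a change in the share of cells and a change within cells cannot be told apart.

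At rest, the members differed widely in how open their starts were. Per kb of start peak, unstimulated libraries had 62.9 CPM at HLA-DMA, more than at 96.5% of 16710 protein-coding genes with a start peak, whose median was 17 CPM per kb. The HLA-DP starts stood near that median, with 17.1 CPM per kb at HLA-DPB1 and 12.4 at HLA-DPA1. Values were lower at HLA-DMB (8.99), HLA-DRB1 (5.59), HLA-DRA (4.31) and CIITA (3.98), the last exceeding 15.2% of genes. HLA-DQB1 was the least open, with 1.21 CPM per kb, above only 0.898% of genes, while CD74 and HLA-DQA1 had no start peak at all. The HLA-DMA value includes peaks that also lie in its neighbour BRD2, because annotated transcripts of HLA-DMA reach into that gene. Its main start peak alone had 65.6 CPM per kb. The CIITA value pools 5 start peaks with 1.39 to 5.13 CPM per kb, none of them at the main start. That of HLA-DPA1 pools 3 start peaks with 1.3 to 16.4 CPM per kb.

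The cytokine contrast asked how cells that had been pulsed and then given DMSO differed from unstimulated cells 2 weeks after the last treatment. Peaks moved in both directions. In edgeR's quasi-likelihood test, 6 member peaks were opened (adjusted p under 0.05, 9.51% of all peaks) and 8 closed (9.73% of all peaks). Their median log2 fold change was -0.07, against 0.13 for all peaks. The opened peaks were weak, 5 of 6 having an average log2 CPM under 1, and lay at HLA-DRA, HLA-DQA1, HLA-DQB1, HLA-DMB and CIITA. The closed peaks were strong, with an average log2 CPM of 2.25 to 5.85, and lay at CD74, HLA-DMA with BRD2, and the DEXI end of CIITA. No member peak had DMSO libraries wholly outside the range of unstimulated libraries. The share of all peaks without such overlap was not counted, so this is a description only.

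The same slope with level was present over the genome. When all peaks were put into 20 bins by level, the median log2 fold change ran from 0.79 in the weakest bin to -0.37 in the strongest. All 6 opened member peaks lay above the median of their own bin and 5 of the 8 closed peaks below theirs, but calling already selects for this. Of all 50 member peaks, 25 lay above the median of their bin. With loess offsets, which reduce this slope, 2 member peaks were opened (HLA-DRA and HLA-DMB) and 0 closed, against 1 closed and 10 opened at an unadjusted p under 0.05. The split was 9 opened and 0 closed with library totals, 8 and 6 with DESeq2 size factors or factors from 10 kb bins, and 1 and 16 with factors from the weaker 50% of peaks. Over all peaks, 3.16% were opened and 1.49% closed with loess offsets, 16.2% and 3.25% with totals, and with the weaker peaks 2.26% were opened and 83810 of 334857 closed. The median of all peaks moved with it, to 0.34 with totals, 0.18 with DESeq2 factors or bins, -0.29 with the weaker peaks and 0.09 after loess. Leaving out 1 library moved the 14 calls as well, to 8 without unstimulated 1, 7 without unstimulated 6, 6 without DMSO 1 and 7 without DMSO 4.

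**Figure D1:**
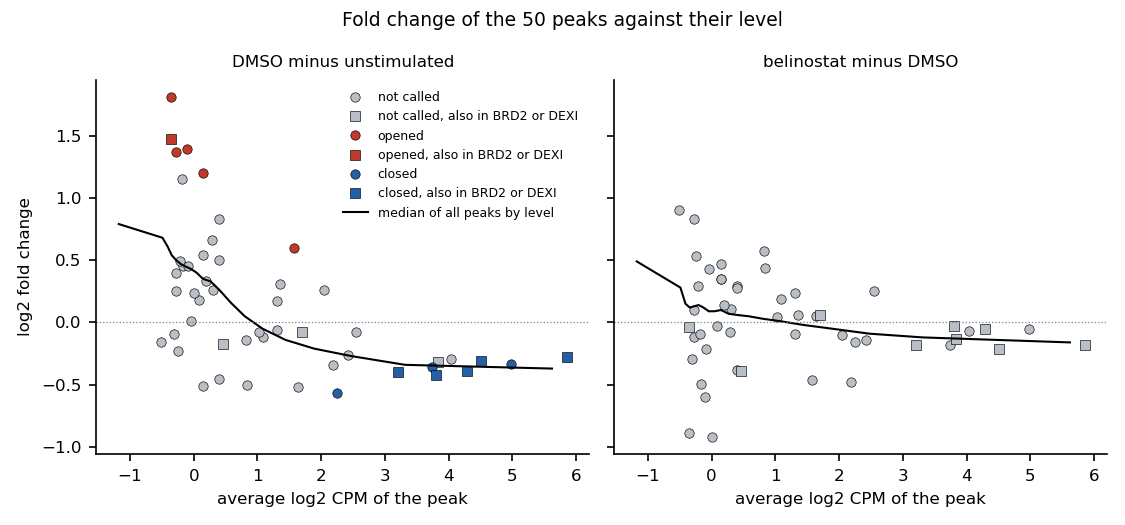
Log2 fold change of the 50 member peaks (vertical axis) against their average log2 CPM (horizontal axis), for the cytokine contrast (left) and the belinostat contrast (right). Red points were opened, blue closed and grey not called. Squares also lie in BRD2 or DEXI, and the line is the median of all 334857 peaks by level. On the left the 6 red points sit above the line, as do some grey points. The 8 blue points lie between -0.57 and -0.28, and on the right no point was called.

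Counts were then summed per gene over its peaks and tested among 19188 protein-coding loci. Of the 10 member loci 1 rose (10.9% of all loci) and 4 fell (62.5% of all loci), with a median log2 fold change of -0.07 against -0.26 over all loci. The split was 1 and 0 with library totals (18.9% and 19.4% of all loci), 2 and 0 with loess offsets (14.5% and 8.15%) and 1 and 6 with factors from the weaker peaks (1.96% and 82.4%). HLA-DPA1 and HLA-DPB1, which lie head to head, share all 5 of their peaks and count as 2 of the 10, so that there were 9 distinct loci.

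HLA-DQB1, the β chain of HLA-DQ, was the locus that rose. The locus holds 2 weak start peaks with 143 counts over all 18 libraries. Its summed log2 CPM ranged from -0.45 to 0.10 in unstimulated libraries (median -0.25), from 0.38 to 1.09 in DMSO (median 0.81) and from 0.19 to 1.03 in belinostat libraries (median 0.78). All 12 pulsed libraries were above all 6 unstimulated ones. The cytokine log2 fold change was 1.28 ± 0.28 (SE, n = 6 per group, adjusted p 5.88e-04). It was 0.92 with loess offsets (adjusted p 0.0215), and between 0.85 and 1.49 over 31 alternatives, all of which called it (adjusted p 1.72e-04 to 0.0215). The counts behind it were small, with 3 to 8 per unstimulated and 7 to 16 per DMSO library.

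The peak at the main HLA-DQB1 start (chr6:32666688-32666880), which holds the boxes printed above, had 1 to 3 counts per unstimulated library (median 2), 3 to 7 in DMSO (median 5.5) and 1 to 5 in belinostat libraries (median 5). Its log2 fold change was 1.37 ± 0.47 (adjusted p 0.0285), with a median of 0.50 for peaks of its level. The call was lost with loess offsets (1.14, adjusted p 0.122) and without any of 5 single libraries (unstimulated 3 or 6 or DMSO 1, 4 or 6, adjusted p 0.0508, 0.0569, 0.0549, 0.0589 and 0.0615). The peak at the outer start (chr6:32668375-32668660) had 0 to 5 counts in unstimulated and 3 to 9 in DMSO libraries, and its difference of 1.15 ± 0.45 did not pass (adjusted p 0.0543). HLA-DQB1 is highly polymorphic and has a near copy in HLA-DQB2, so reads of this line may align unevenly to the reference.

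**Figure D2:**
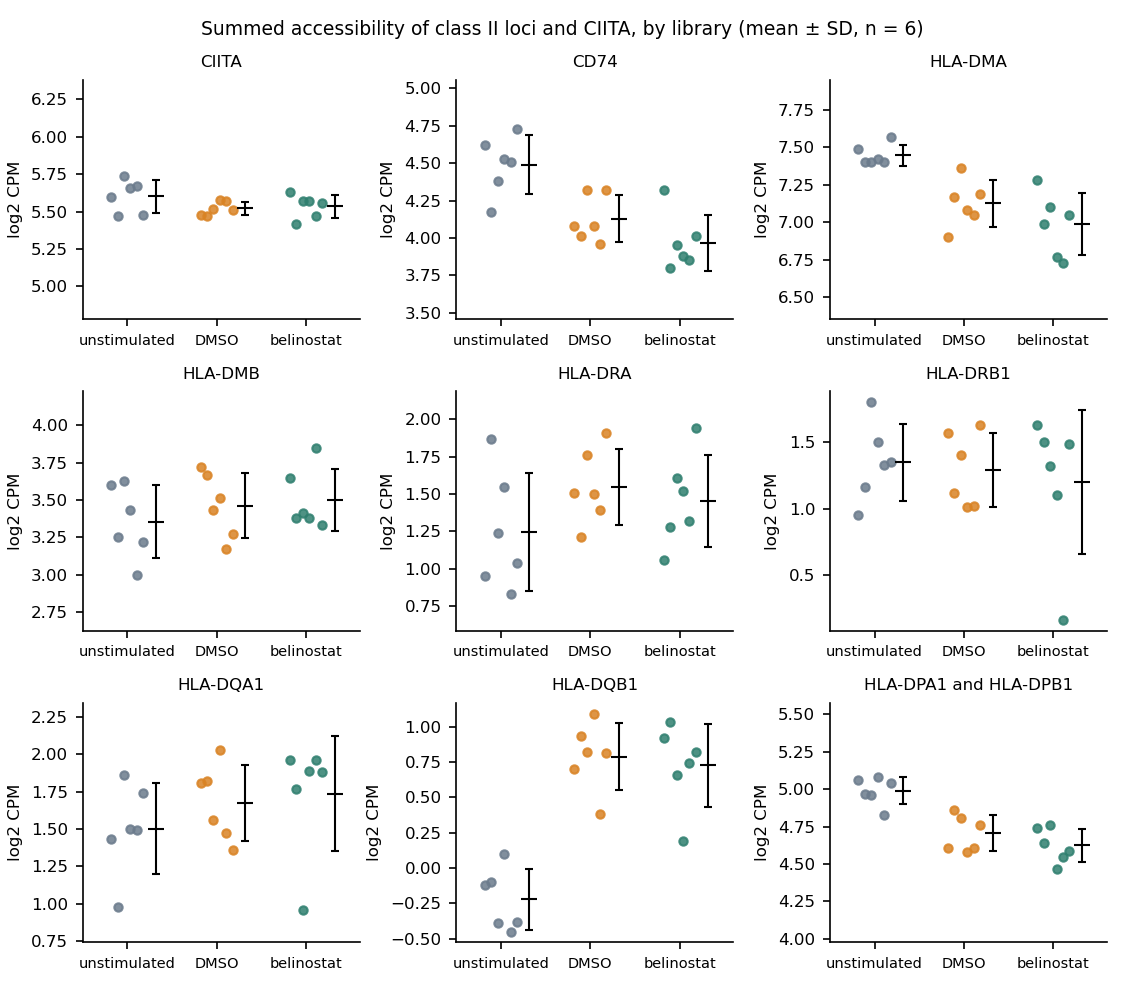
Summed log2 CPM of each distinct member locus (vertical axes, each spanning at least 1.6 units) in the 6 libraries of each group (points), with the mean and SD beside them. At HLA-DQB1 the DMSO and belinostat points lie above all unstimulated points, while CIITA stays between 5.42 and 5.74 in all libraries.

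CIITA itself had 23 peaks over its 76800 bp (chr16:10866222-10943021, plus strand), more than any other member, and 17 of them had an average log2 CPM under 1. Its summed log2 CPM ranged from 5.47 to 5.74 in unstimulated libraries (median 5.63), from 5.47 to 5.58 in DMSO (median 5.52) and from 5.42 to 5.63 in belinostat libraries (median 5.56). The groups overlapped throughout. The cytokine log2 fold change was -0.08 ± 0.07 (adjusted p 0.261), above the median of all loci, and the scaling set its sign, with 0.20 with loess offsets (adjusted p 0.0347) and -0.52 with factors from the weaker peaks (adjusted p 0.00178). Of the CIITA counts, 51.1% came from 4 peaks that also lie in DEXI, the neighbouring gene at its 3′ end. Without them the change was 0.17 (adjusted p 0.086).

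The alternative starts of CIITA were not equally open. No peak lay within 250 bp of the outermost start, where promoter I is known to lie (the nearest was 4239 bp or more away), nor of the main annotated start, that of promoter III (nearest 1270 bp). At the start 1767 bp downstream, the place of promoter IV, 2 neighbouring peaks were found. The stronger (chr16:10878472-10879141), in an exon, had a log2 CPM of 1.65 to 2.14 in unstimulated (median 1.87), 1.74 to 2.46 in DMSO (median 2.19) and 1.78 to 2.37 in belinostat libraries (median 2.03). The second (chr16:10879152-10879588), in the intron behind it, had 0.83 to 1.39 (median 1.12), 1.28 to 1.58 (median 1.39) and 0.96 to 1.93 (median 1.55).

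All groups overlapped at both peaks. The cytokine log2 fold changes were 0.26 ± 0.18 (adjusted p 0.287) and 0.31 ± 0.22 (adjusted p 0.32), where peaks of their level had medians of -0.21 and -0.14. Loess offsets gave 0.48 (adjusted p 0.0755) and 0.43 (adjusted p 0.242), and library totals called the stronger one opened (0.48, adjusted p 0.0343). Median counts at the stronger peak were 24 per unstimulated and 30.5 per DMSO library, and at this depth no difference was detectable with TMM factors.

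Inside CIITA, 1 exonic peak was opened (chr16:10901589-10901880, next to the annotated start of a retained-intron transcript). It had 2 to 4 counts per unstimulated, 4 to 9 per DMSO and 4 to 11 per belinostat library. The log2 fold change was 1.20 ± 0.40 (adjusted p 0.0233), 1.01 with loess offsets (adjusted p 0.107) and 1.10 without DMSO 6 (adjusted p 0.0528). In the residual contrast it was 1.55 ± 0.39 (adjusted p 0.00126), also called with loess offsets (adjusted p 0.0151). Another opened peak (chr16:10933514-10933671, 1.47 ± 0.50, adjusted p 0.0274), with 1 to 3 counts in unstimulated and 3 to 7 in DMSO libraries, lay in DEXI as well. Its call was lost with loess offsets (1.24, adjusted p 0.119) and without unstimulated 1, 2 or 6 or DMSO 1, 4 or 6 (adjusted p 0.0514 to 0.0678). The 2 peaks near a further inner start (chr16:10922478-10922684 and chr16:10923101-10923371) had differences of 0.24 ± 0.37 (adjusted p 0.682) and -0.51 ± 0.38 (adjusted p 0.338).

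The strongest peak of the CIITA window (chr16:10941671-10942688) lay in DEXI as well. Its log2 CPM fell from a median of 4.59 in unstimulated to 4.14 in DMSO libraries (4.30 to 4.69 and 3.93 to 4.39), by 0.39 ± 0.12 on the log2 scale (adjusted p 0.0106). Peaks of its level had a median of -0.37, and with loess offsets its difference was -0.03 (adjusted p 0.837). Per kb, the most open CIITA peak outside DEXI was an intronic one 41733 bp from the main start (chr16:10918771-10919099), with 10.5 CPM per kb in unstimulated and 7.4 in DMSO libraries (-0.52 ± 0.20, adjusted p 0.0508).

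**Figure D3:**
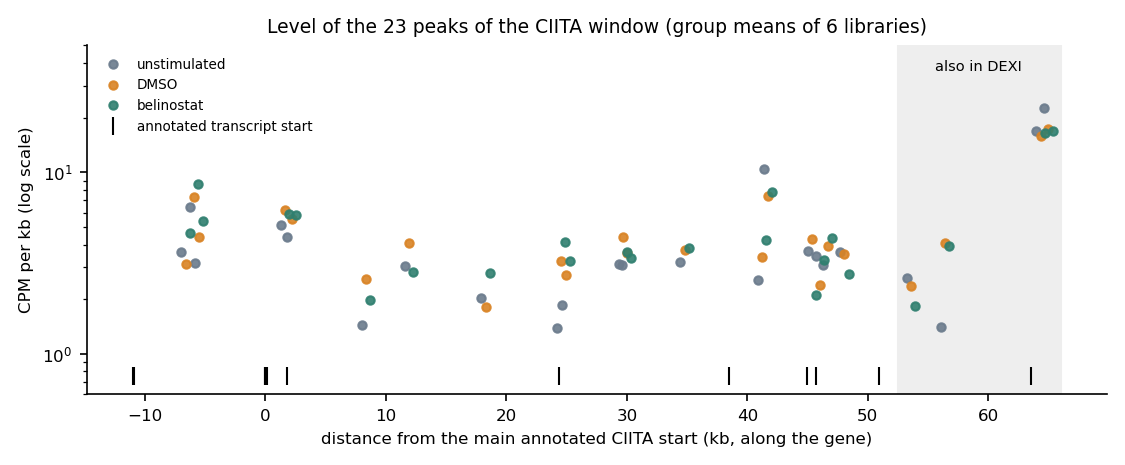
Mean CPM per kb (vertical log axis) of the 23 peaks of the CIITA window in each group of 6 libraries, against distance from the main annotated start (horizontal axis, the 3 groups drawn side by side), with ticks at annotated transcript starts. No peak stands at the main start or at the starts furthest upstream, a pair stands at the start 1767 bp downstream, and the highest peak lies in the shaded stretch shared with DEXI.

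CD74 (chr5:150401637-150412969, minus strand) fell as a locus. Its summed log2 CPM was 4.17 to 4.73 across unstimulated libraries (median 4.52), 3.96 to 4.32 after DMSO (median 4.08) and 3.80 to 4.32 after belinostat (median 3.92). The lowest unstimulated library overlapped the DMSO range. The cytokine log2 fold change was -0.37 ± 0.10 (adjusted p 0.00196). The call was lost with loess offsets (-0.19, adjusted p 0.0804) and with library totals (-0.15, adjusted p 0.124).

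Both CD74 peaks behind this were intronic. The one 2174 bp inside the gene (chr5:150410593-150410879) had 33 to 66 counts per unstimulated library (median 38.5), 22 to 44 in DMSO (median 26.5) and 18 to 25 in belinostat libraries (median 20.5). It closed by more than peaks of its level, with a log2 fold change of -0.57 ± 0.17 (adjusted p 0.00927) against a median of -0.27, but was not called with loess offsets (-0.34, adjusted p 0.185), library totals (-0.36, adjusted p 0.0849) or DESeq2's Wald test (-0.53, adjusted p 0.0505). The stronger one (chr5:150409791-150410260) changed by -0.36 ± 0.12 (adjusted p 0.0264), near the -0.34 of its level, and was not called without unstimulated 1 or 6 or DMSO 1, 4 or 5 (adjusted p 0.0831, 0.0989, 0.0523, 0.0829 and 0.0629). A weak peak at -9409 bp from the start was not called (0.66, adjusted p 0.169).

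HLA-DMA (chr6:32948613-32969094, minus strand) also fell. Its summed log2 CPM was 7.40 to 7.57 in unstimulated (median 7.41), 6.90 to 7.36 in DMSO (median 7.12) and 6.73 to 7.28 in belinostat libraries (median 7.02). All unstimulated libraries were above all others. The cytokine log2 fold change was -0.32 ± 0.08 (adjusted p 0.00129), -0.11 with library totals (adjusted p 0.0572) and as small as -0.03 after loess (adjusted p 0.516). Of its counts, 78.9% came from 5 peaks that also lie in BRD2, a chromatin reader of the BET family with a strong promoter there.

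The peak at the main HLA-DMA start (chr6:32952965-32953520), which also carries an X and a Y box, had 231 to 345 counts per unstimulated library (median 256), 182 to 246 in DMSO (median 216.5) and 139 to 200 in belinostat libraries (median 168.5). Its log2 fold change was -0.33 ± 0.11 (adjusted p 0.0217), near the -0.37 of its level, and it turned to 0.07 with loess offsets (adjusted p 0.546). Without unstimulated 1, 3 or 6 or DMSO 1 the adjusted p was 0.0645, 0.0555, 0.0948 and 0.0706. In the peaks shared with BRD2, 4 of 5 closed, by 0.28 to 0.42 on the log2 scale, and loess offsets gave -0.09 to 0.13. Of the 4 calls, 3 were lost without some single libraries, that of the strongest (chr6:32971493-32972504) without unstimulated 1, 4, 5 or 6 or DMSO 1, 2, 4 or 5 (adjusted p 0.0514 to 0.11), the next (chr6:32969724-32970465) without unstimulated 1, 2, 4 or 6 or DMSO 1, 4 or 5 (adjusted p 0.06 to 0.103) and the third (chr6:32968791-32968943) without unstimulated 1, 5 or 6 or DMSO 1 or 4 (adjusted p 0.0511 to 0.0811). The fifth (chr6:32968398-32968704) had a difference of -0.32 ± 0.12 (adjusted p 0.0505).

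HLA-DMB, the partner chain, did not follow. Its summed log2 CPM was 3.00 to 3.63 in unstimulated (median 3.34), 3.17 to 3.72 in DMSO (median 3.47) and 3.33 to 3.85 in belinostat libraries (median 3.40), with full overlap. The cytokine log2 fold change was 0.11 ± 0.12 (adjusted p 0.442), and -0.34 with factors from the weaker peaks (adjusted p 0.0447). The start peak (chr6:32940625-32941225) had a median log2 CPM of 2.49, 2.40 and 2.64 in the 3 groups (-0.08 ± 0.16, adjusted p 0.766). A peak at -4418 bp from that start (chr6:32945158-32945734) opened by 0.60 ± 0.21 (adjusted p 0.0275), against -0.14 for its level, with 12 to 21 counts in unstimulated and 16 to 38 in DMSO libraries, and was called with loess offsets as well (0.75, adjusted p 0.0176). The call was lost with factors from the weaker peaks (0.16, adjusted p 0.668) and without unstimulated 2 or 4 or DMSO 1 or 3 (adjusted p 0.0638, 0.0718, 0.145 and 0.0658).

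At HLA-DRA, the α chain of HLA-DR, the start stayed weak. The start peak (chr6:32439678-32439938), with an X and a Y box, had 5 to 17 counts per unstimulated (median 6.5), 3 to 8 per DMSO (median 7) and 4 to 9 per belinostat library (median 5.5). Its log2 fold change was -0.45 ± 0.32 (adjusted p 0.325), below the 0.26 of its level. Within the gene, an exonic peak (chr6:32442554-32442779) had 0 to 4 counts per unstimulated (median 1), 2 to 9 per DMSO (median 6) and 1 to 4 per belinostat library (median 3). It had the largest log2 fold change among the 50 peaks, 1.81 ± 0.49 (adjusted p 0.00563), and was called with loess offsets (1.57, adjusted p 0.0395), although the libraries overlapped and only 63 counts stood behind it. The whole locus was not called (0.27 ± 0.21, adjusted p 0.255, and -0.01 with loess offsets).

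HLA-DRB1, its β chain, had a single peak, at the start (chr6:32589608-32590019). Its log2 CPM was 0.95 to 1.80 in unstimulated (median 1.34), 1.01 to 1.63 in DMSO (median 1.26) and 0.16 to 1.63 in belinostat libraries (median 1.41). The groups overlapped fully, and the cytokine log2 fold change of the peak was -0.06 ± 0.22 (adjusted p 0.878). Tested as a locus it had -0.06 ± 0.23 (adjusted p 0.821), and -0.35 with the loess offsets of loci (adjusted p 0.291). The gene has near copies, so reads from it may have been lost or shared.

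HLA-DQA1 had no start peak. The strongest peak of its window, upstream (chr6:32622494-32622789), had 9 to 19 counts per unstimulated and 7 to 19 per DMSO library (-0.12 ± 0.25, adjusted p 0.764). An exonic peak (chr6:32642654-32643032) opened from 0 to 5 counts (median 3) to 3 to 15 (median 6.5), with 0 to 8 in belinostat libraries, and overlapping ranges. Its log2 fold change was 1.39 ± 0.43 (adjusted p 0.0153), 1.16 with loess offsets (adjusted p 0.0849) and 1.09 without DMSO 4 (adjusted p 0.103). The locus was not called (0.21 ± 0.20, adjusted p 0.33).

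HLA-DPA1 and HLA-DPB1 fell as 1 unit. Their summed log2 CPM was 4.83 to 5.08 in unstimulated (median 5.00), 4.58 to 4.86 in DMSO (median 4.69) and 4.47 to 4.76 in belinostat libraries (median 4.61). DMSO libraries overlapped the unstimulated range at 1 end, and belinostat libraries lay below it. The log2 fold change was -0.29 ± 0.08 (adjusted p 0.00187), near the -0.26 of all loci, and -0.08 with library totals (adjusted p 0.293) or -0.05 with loess offsets (adjusted p 0.574). Their strongest peak, between both genes (chr6:33080186-33081309), did not pass alone (-0.29 ± 0.12, adjusted p 0.0658), nor did the HLA-DPB1 start (chr6:33075737-33076030, -0.26 ± 0.16, adjusted p 0.237). At 2 inner HLA-DPA1 starts (chr6:33068902-33069146 and chr6:33073575-33073848) the values were 0.40 ± 0.50 (adjusted p 0.604) and -0.50 ± 0.27 (adjusted p 0.18).

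Beside the loci that fell, the summed start peaks of fibroblast markers were lower in DMSO than in unstimulated libraries (262 to 353 against 374 to 424 CPM), without overlap. Summed over the 50 member peaks, accessibility was 294 ± 11.3 CPM (SD, n = 6) without stimulation, 249 ± 18 after DMSO and 234 ± 23.7 after belinostat. The 9 peaks in BRD2 or DEXI held 54.1% of these counts, and without them the sums were 129 ± 7.01, 116 ± 3.96 and 113 ± 6.07 CPM. The part of the genome-wide slope in these sums was not tested.

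**Figure D4:**
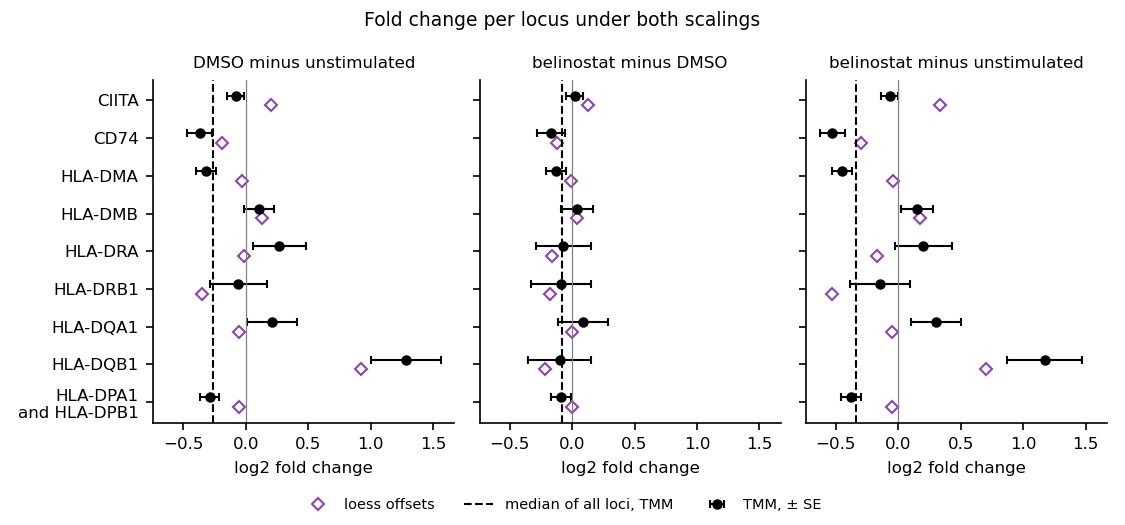
Log2 fold change of each distinct member locus in the 3 contrasts (horizontal axes) with TMM factors (black, ± SE) and with loess offsets (open diamonds); the dashed line is the TMM median of all loci. HLA-DQB1 stands apart at 1.28 in the cytokine contrast and 1.17 in the residual contrast, and all member loci lie between -0.17 and 0.09 with TMM in the belinostat contrast.

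The belinostat contrast asked what the inhibitor changed in cells with the same cytokine history. None of the 50 member peaks was opened (0.607% of all peaks) and none closed (1.75% of all peaks) in edgeR's test, the lowest adjusted p being 0.186. At an unadjusted p under 0.05, 1 peak was higher and 4 were lower. DESeq2's Wald test also called 0, with 0 higher and 1 lower at an unadjusted p under 0.05. It gave an adjusted p to only 127108 of 334857 peaks and 9888 of 19188 loci, and those without one could not be called. Of the 10 loci, 0 rose (0.125% of all loci) and 0 fell (2.04%), and none had an unadjusted p under 0.05 in edgeR or DESeq2. The median log2 fold change of member peaks was -0.05, against 0.01 for all peaks.

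The HLA-DQB1 locus was not called (-0.10 ± 0.25, adjusted p 0.835), nor was CIITA (0.02 ± 0.07, adjusted p 0.918). The stronger promoter IV peak of CIITA had -0.10 ± 0.18 (adjusted p 0.819). Values were -0.17 ± 0.11 at CD74 (adjusted p 0.355), -0.13 ± 0.08 at HLA-DMA (adjusted p 0.331) and -0.09 ± 0.08 at HLA-DPA1 and HLA-DPB1 (adjusted p 0.529). Without belinostat 1, HLA-DMA was called (-0.20, adjusted p 0.0449).

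The smallest p belonged to an intronic peak of HLA-DPA1 and HLA-DPB1 (chr6:33082749-33083045), with 28 to 33 counts per DMSO library (median 32) and 12 to 25 per belinostat library (median 18). Its log2 fold change was -0.48 ± 0.19 (adjusted p 0.186), and -0.65 without belinostat 1 (adjusted p 0.0472). The exonic HLA-DRA peak and the upstream HLA-DMB peak, opened in the cytokine contrast, had belinostat differences of -0.89 ± 0.45 (adjusted p 0.31) and -0.46 ± 0.21 (adjusted p 0.256). Both contrasts use the same DMSO libraries.

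The residual contrast asked how far belinostat cells stood from unstimulated cells. Of the member peaks 4 were opened (16.8% of all peaks) and 11 closed (13.7% of all peaks), against 4 and 1 with loess offsets (7.09% and 3.70% of all peaks), 12 and 4 with library totals (30.4% and 6.31%) and 1 and 16 with factors from the weaker peaks (2.77% and 30.5%). Of the loci 1 rose (13.0% of all loci) and 4 fell (66.8% of all loci), against 1 and 1 with loess offsets (21.3% and 17.5%), 4 and 2 with totals (25.8% and 29.5%) and 0 and 7 with the weaker peaks (1.66% and 84.9%). HLA-DQB1 stayed 1.17 ± 0.30 above unstimulated cells (adjusted p 7.45e-04, but 0.70 with loess offsets, adjusted p 0.0846, and 0.61 with factors from the weaker peaks, adjusted p 0.08). CD74 was 0.53 lower on the log2 scale (-0.53 ± 0.10, adjusted p 3.74e-05), and this held with loess offsets (-0.30, adjusted p 0.00511). CIITA was not called with TMM factors (-0.07 ± 0.07, adjusted p 0.356), was lower with factors from the weaker peaks (-0.62, adjusted p 2.64e-04) and was higher with loess offsets (0.33, adjusted p 6.57e-04), with library totals (0.24, adjusted p 0.00242) and without the peaks in DEXI (0.25, adjusted p 0.0169).

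Loci of the wider class II pathway were read from fixed lists, by counts beside the 62.5% of all loci that fell and the 10.9% that rose with TMM factors, and the 8.15% and 14.5% that did with loess offsets. Of 4 further class II genes with a peak, 2 rose, HLA-DQB2 (0.71 ± 0.30, adjusted p 0.0315) and HLA-DOB, part of the HLA-DM inhibitor HLA-DO (0.34 ± 0.11, adjusted p 0.0096). HLA-DOB also rose with loess offsets (0.28, adjusted p 0.0448) and HLA-DQB2 did not pass (0.43, adjusted p 0.288). HLA-DRB5 (0.06, adjusted p 0.894) and HLA-DOA (-0.11, adjusted p 0.313) were not called, and HLA-DQA2 had no peak.

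All 7 loci of the factors that bind the X and Y boxes fell, with a median of -0.39 against -0.26 over all loci, from RFXANK (-0.27) to RFX5 (-0.45 ± 0.09, adjusted p 4.43e-04). With loess offsets 4 of 7 fell (8.15% of all loci), RFX5 (-0.17), RFXAP (-0.21), NFYA (-0.10) and CREB1 (-0.12), with a median of -0.12. All 9 loci on the route from interferon-γ to CIITA fell as well, with a median of -0.34. With loess offsets their median was -0.05, and the receptor chain IFNGR1 fell (-0.25, adjusted p 0.0108).

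Among 5 coactivators, CREBBP (-0.18), EP300 (-0.30) and NCOA1 (-0.32) fell, and with loess offsets SMARCA4, an ATPase of SWI/SNF remodelling complexes, rose (0.36, adjusted p 8.65e-04) and 0 fell. Of 7 loci of antigen processing and turnover 5 fell, led by CTSS, the protease that trims CD74 (-0.54 ± 0.12, adjusted p 6.68e-04), which also fell with loess offsets (-0.59, adjusted p 0.00156). CTSB was the single listed locus that fell after belinostat (-0.28, adjusted p 0.0448), where 2.04% of all loci fell. With loess offsets (2.61% of all loci) CTSS and CTSB did (-0.51, adjusted p 0.0388, and -0.15, adjusted p 0.0131).

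Of 6 costimulatory loci, CD40 (0.60 ± 0.15, adjusted p 0.00114) and CD86 (0.54 ± 0.13, adjusted p 8.72e-04) rose, also with loess offsets (0.48, adjusted p 0.0183, and 0.46, adjusted p 0.00848), and ICOSLG fell (-0.36, adjusted p 0.00251). Of 13 class I loci, 10 fell, with a median of -0.35, and HLA-G rose (0.75 ± 0.16, adjusted p 4.91e-04). With loess offsets 0 class I loci fell and 2 rose, HLA-G (0.53, adjusted p 0.0128) and NLRC5, the class I counterpart of CIITA (0.23, adjusted p 9.44e-04).

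**Figure D5:**
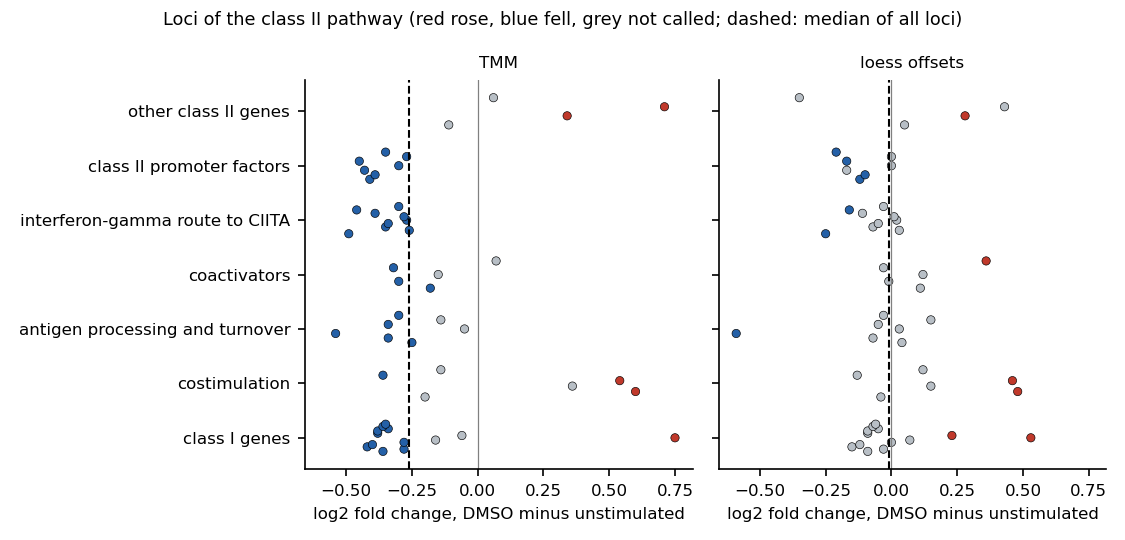
Log2 fold change in the cytokine contrast (horizontal axis) of each locus of the 7 pathway lists (rows), with TMM factors (left) and loess offsets (right); red points rose, blue fell and grey were not called, and the dashed line is the median of all loci. With TMM all promoter factor and interferon-γ route loci are blue, and with loess offsets most lie near 0, leaving CTSS lowest and HLA-G highest.

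Between the outermost class II members on chromosome 6 (chr6:32439878-33089696) another 52 peaks lay outside every member window. Of these, 9 were opened (17.3%, against 9.51% of all peaks) and 7 closed (13.5%, against 9.73%) in the cytokine contrast. None was opened or closed in the belinostat contrast (0.607% and 1.75% of all peaks), and 7 were opened (13.5%, against 16.8%) and 9 closed (17.3%, against 13.7%) in the residual contrast. The opened ones included 2 in HLA-DOA (1.11, adjusted p 0.0279, and 1.01, adjusted p 0.00416) and 1 each in HLA-DQB2 (0.99, adjusted p 0.0381) and HLA-DOB (0.96, adjusted p 0.048). With loess offsets the second HLA-DOA peak was called (1.04, adjusted p 0.0106), and the other 3 were not (0.91, 0.79 and 0.78, adjusted p 0.131, 0.168 and 0.187). The closed ones included the peaks at PSMB8 and PSMB9 (-0.47, adjusted p 0.00134) and at PSMB9 and TAP1 (-0.35, adjusted p 0.00939), which serve class I presentation. Neither was called with loess offsets (-0.09, adjusted p 0.401, and 0.06, adjusted p 0.493). At TAP2, also a class I gene, a weak peak opened (0.88, adjusted p 0.0342) and a strong one closed (-0.36, adjusted p 0.00941). With loess offsets neither TAP2 peak was called (0.84, adjusted p 0.0935, and 0.04, adjusted p 0.69). The largest fall among the closed ones lay outside protein-coding genes (chr6:32982178-32982742, -0.79, adjusted p 0.00172). That peak was also called with loess offsets (-0.64, adjusted p 0.0271).

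The loci whose log2 CPM ran most like that of CIITA over the 18 libraries were MVB12B (Pearson r 0.832), TCTN1 (0.749), FAM50A (0.731), KCNN1 (0.73) and IGHMBP2 (0.727), among 19174 loci with a median r of 0.299. These values are a description over libraries that share depth and the slope with level. Cytokine log2 fold changes at these 5 loci were -0.10 to -0.18.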

How the data were processed

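Accessibility was measured by ATAC-seq in 18 libraries. The authors aligned reads to hg38 with the ENCODE pipeline, called peaks with MACS2, merged them over conditions and counted fragments per consensus peak, and the deposited values are these raw counts without normalization. Per the labels, peaks were annotated with ChIPseeker 1.34.1. Starts in the file count from 0 and were raised by 1. Genes came from GENCODE release 44 of the same build. The authors scaled on background bins of the reads, which were not analysed here, as were transposase offsets.

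The test of these counts was that of edgeR 4.0.16 under R 4.3.3 (TMM factors over peaks, estimateDisp, glmQLFit with the earlier quasi-likelihood method, glmQLFTest, 1 mean per group over 18 libraries) and adjusted by Benjamini-Hochberg over all peaks or all loci. A value is called at an adjusted p under 0.05, ± SE is the fitted log2 fold change divided by the root of F, and log2 CPM used a prior count of 2. Loess offsets (limma 3.58.1, span 0.3) were fitted per library to level. Other alternatives were library totals, factors from 10 kb bins or the weaker 50% of peaks, DESeq2 1.42.0 factors and Wald test, edgeR's newer method, an average log2 CPM over 0, the 2 groups alone, a replicate block, 3 kb upstream, shared peaks left out and each library left out. Leaving out peaks in BRD2 or DEXI was chosen after seeing the data.

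Data were simulated for the belinostat contrast with 100 peaks or loci changed per fold size, all with a mean of at least 10 counts. Of these changes, 69% of 2-fold and 27% of 1.5-fold ones were recovered among 334857 peaks, and 99% and 92% among 19188 loci. Recovery was not simulated for weaker peaks, which 26 of the 50 member peaks were, nor for weaker loci. The HLA-DQB1 locus, with 143 counts over 18 libraries, was such a locus. Among loci, recovery was not split by level. The shares therefore do not give recovery at HLA-DRA, HLA-DRB1 or HLA-DQA1, which had 312, 276 and 364 counts over all libraries. Named in full were start peaks, the strongest peak per gene and the 8 called peaks of smallest p per contrast, and the upstream HLA-DMB and CD74 peaks and further peaks in CIITA, BRD2 and HLA-DPA1 were added after their values were seen. Members and lists were chosen with earlier results of these data known. Libraries of a group were compared in pairs by chi-square over 95928 peaks with an average log2 CPM over 1. All 45 pairs differed by more than counting noise, by little in the closest (1.03 times the noise, p 1.46e-09), so none was counted as a duplicate. Not every called locus of the pathway lists is reported here.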

Additional observations from a re-analysis of the deposited data

Results flagged for a closer look

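Of 102 groups of 6 libraries tested at member loci and peaks, 7 held a library far from the other 5 by Dixon's test, and chance flags about 1 in 20. At the HLA-DRB1 locus, which is its single start peak, belinostat 5 had a log2 CPM of 0.16 where the other belinostat libraries had 1.10 to 1.63. At the HLA-DQA1 locus, belinostat 3 had 0.96 (others 1.77 to 1.96). Belinostat 3 was also low at the main HLA-DQB1 start peak, with -1.09 (others -0.17 to 0.33), and belinostat 4 at the outer HLA-DQB1 start peak, with -1.22 (others -0.03 to 0.48). At that outer peak, unstimulated 5, with a count of 0, had -1.81 (others -0.73 to -0.37). At the HLA-DRA start peak, DMSO 2 had -0.53 (others 0.13 to 0.44). In each case the library was the lowest of its group and the peak had few counts.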

How the results depend on the processing

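Member peaks called in the cytokine contrast (14) numbered 2 with loess offsets, 9 with library totals and 5 with DESeq2's Wald test, and 6 to 19 with 1 library left out. Called loci (5) numbered 2 with loess offsets, 1 with library totals, 3 with shared peaks left out (fewer loci tested) and 5 with any library left out. In the belinostat contrast 0 peaks and 0 loci were called, and 1 of each without belinostat 1 (0 to 1). In the residual contrast 15 peaks became 5 and 5 loci 2 with loess offsets, 3 loci were called with shared peaks left out, and 12 to 19 peaks and 5 to 6 loci with 1 library left out. Turned in sign and called in either fit were CIITA in the cytokine contrast (0.20 with loess offsets) and in the residual contrast (0.33 with loess offsets, 0.24 with library totals, 0.25 without peaks in DEXI), and HLA-DMB with factors from the weaker peaks (-0.34 and -0.43). With loess offsets the HLA-DMA start peak (0.07, residual 0.20) and its BRD2 peaks (0.13 and 0.06 at 2 of them, and 0.02, 0.03, 0.04 and 0.16 at 4 in the residual contrast), the strongest HLA-DPA1 and HLA-DPB1 peak (residual 0.15) and the DEXI peak (residual 0.09) turned. The loess and total settings change the slope or the centre by construction; further causes were not tested. Of 3009 values of 105 single results, 2847 stayed on the same side of the threshold, and 91 of these changed sign while uncalled.

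Replicate numbers are shared by all groups. Deviations of same-numbered libraries correlated by -0.199 to 0.106, with 2 of 18 above 0.1, and 2 libraries were closest to their own number, so the numbers do not pair them. With a replicate block, 16 member peaks were called in the cytokine contrast, 0 in the belinostat contrast and 15 in the residual contrast, and 5, 0 and 5 loci.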
